A study of Homo sapiens with 4 samples.

Results

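The genes described here are 30 genes of cholesterol and fatty acid synthesis that are known targets or controllers of the transcription factor SREBP2 and its relative SREBP1, listed by name from their roles in the pathway. They were followed in HCT116 cells, a human colorectal cancer line, that had been transfected for 48 h, per the labels, with an antisense oligonucleotide (ASO) against GAA repeats (anti-GAA ASO) or with a control ASO. RNA was sequenced from 2 libraries of each kind, which carry the numbers 232 (replicate 1) and 234 (replicate 2) in both groups. Cells of both groups received an ASO by transfection, and no untreated library was analysed here. The comparison asks how RNA levels differed when RNAs with GAA repeats were targeted. Of the 30 members, 29 were found among the 63677 counted genes by their Ensembl identifier, and 28 had enough counts to be tested among 15116 genes. ACACA, which encodes the enzyme that makes malonyl-CoA, was not matched and has no value here. The 28 tested members passed the filter on low counts, so counts over them leave out the member with the fewest reads counted.

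Cholesterol is built from acetyl-CoA in a chain of enzymes, first to farnesyl diphosphate (the mevalonate arm) and then through squalene and lanosterol to cholesterol (the sterol arm). SREBP2, encoded by SREBF2, is held in the endoplasmic reticulum by SCAP and INSIG proteins when sterols are plentiful, and is cut free and switches on most of these genes when sterols run low. SREBP1, encoded by SREBF1, acts mainly on fatty acid genes, and lipid supply, lipid-based transfection and cell density are all known to move this program.

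Total counts were 10538284 to 17894953 per library. The 7 epithelial markers examined (among them EPCAM, KRT8 and CDH1) were expressed in every library, with a summed level of 2649 to 3024 CPM (reads of a gene relative to the TMM-scaled library total). CD3E, COL1A2 and PECAM1, defining markers of T cells, fibroblasts and endothelium, had 0 counts in all libraries, which allows up to 3 counts per library. Of the other non-epithelial markers, COL1A1 lay at 10.1 to 14.6 CPM and the rest at or below 13 counts. Across all genes, edgeR's quasi-likelihood test with Benjamini-Hochberg adjustment called 0 of 15116 genes at an adjusted p under 0.05 (0%), with 154 genes higher (1.02%) and 523 lower (3.46%) at an unadjusted p under 0.05. DESeq2 called 5 genes, all lower with the anti-GAA ASO. Nothing in the labels says whether replicates came from separate cultures, so p-values measure only the spread between these libraries.

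No member changed by the adjusted test, against 0% of all genes. The members' log2 fold changes (anti-GAA over control) ran from -0.47 to 0.65, with a median of 0.10 beside 0.01 for all tested genes. This median was 0.21 without anti-GAA replicate 1, 0.21 without control replicate 1, 0.09 without anti-GAA replicate 2 and 0.05 without control replicate 2. Of the 28 tested members, 20 had a value above 0 (71.4%), where 51.6% of all tested genes did. With scaling to total counts in place of TMM the median was 0.01, beside -0.08 for all genes, and 15 members were above 0. At an unadjusted p under 0.05, 3 members were higher with the anti-GAA ASO (MSMO1, FDFT1 and SREBF2) and 0 were lower, beside the 1.02% and 3.46% of all genes given above. In these bulk libraries, fewer cells of a kind and less RNA per cell cannot be told apart.

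**Figure D1:**
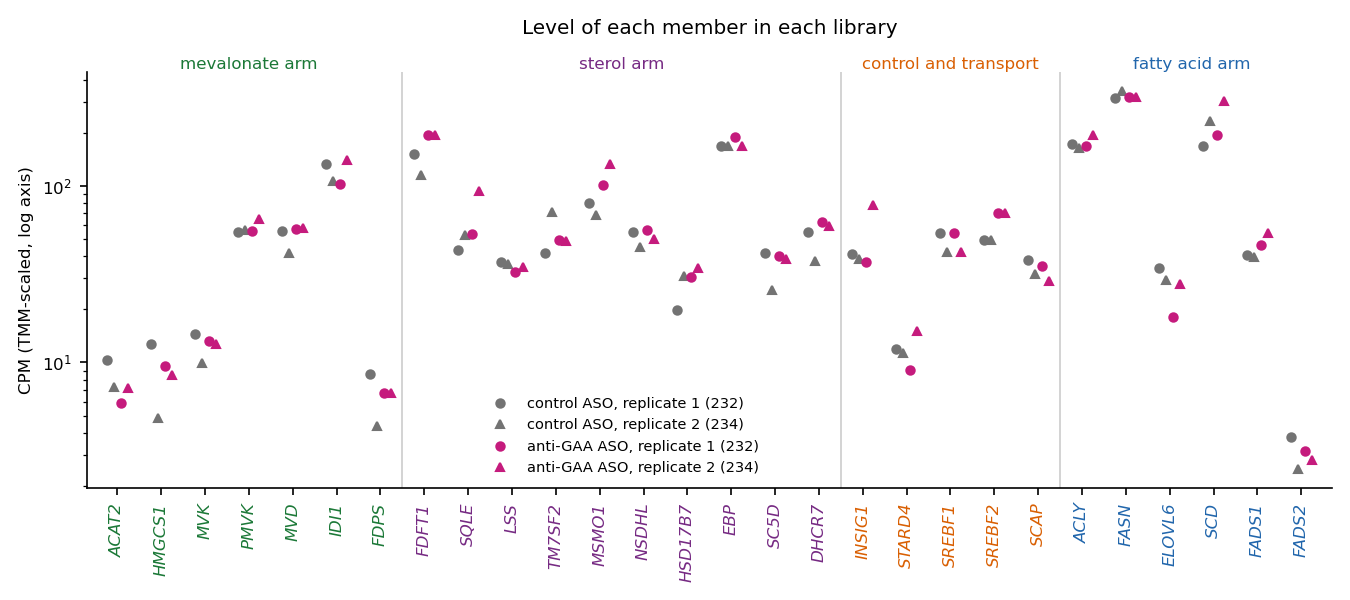
Level of the 28 tested members in each library, in pathway order, as TMM-scaled CPM on a log axis. Grey marks are control ASO libraries and pink marks anti-GAA ASO libraries, with circles for replicate 1 and triangles for replicate 2; MSMO1, FDFT1 and SREBF2 have both pink marks above both grey marks.

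The 3 members past the unadjusted threshold act at different points of the pathway. MSMO1, the sterol C4-methyl oxidase that takes methyl groups off lanosterol derivatives, was at 101 and 133 CPM in the anti-GAA libraries (replicates 1 and 2, the order used throughout) and at 80.7 and 68.5 CPM in the controls. Both anti-GAA libraries lay above both control libraries, and the second stood highest. The fitted log2 fold change was 0.65 ± 0.22 (SE), a 1.57-fold difference with a 95% interval of 0.12 to 1.18 on the log2 scale (edgeR adjusted p = 0.996).

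FDFT1, squalene synthase, which takes the first step that leads only to sterols, was at 196 and 194 CPM in the anti-GAA libraries and 152 and 115 CPM in the controls. The anti-GAA libraries were nearly equal, and the spread lay between the control libraries. Its log2 fold change was 0.54 ± 0.21 (SE), with an interval of 0.04 to 1.05 (edgeR adjusted p = 0.996).

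SREBF2, which encodes SREBP2 itself, was at 70.0 and 70.5 CPM in the anti-GAA libraries and 49.6 and 49.4 CPM in the controls. No other member had groups this far apart with replicates this close. The log2 fold change was 0.51 ± 0.19 (SE), a 1.42-fold difference with an interval of 0.05 to 0.96 (edgeR adjusted p = 0.996). It was 0.50 to 0.52 when each library was left out in turn, 0.41 with total-count scaling and 0.60 with offsets for transcript length and GC content. SREBF2 was not past the unadjusted threshold with DESeq2, with total-count scaling or without the filter on low counts. In the other fits to all libraries it was. The antisense RNA gene SREBF2-AS1 shares 9.08% of the SREBF2 exon bases on the opposite strand. Its own counts were 135 and 268 in the anti-GAA libraries and 206 and 246 in the control libraries, and whether reads were counted by strand is not given in the sources used here.

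Promoter windows are shown because SREBP2 binds sterol elements in its target genes, its own gene included, often beside a CCAAT box bound by NF-Y. The RefSeq promoter table (GRCh38.p14, windows of 300 bases around the gene start) held a window for 26 of the 30 members, and ACAT2, FDFT1, SQLE and FASN had none. SREBF2 and MSMO1 are shown as members past the unadjusted threshold, and MVK, FDPS and HSD17B7 are examples of the other members with the element, picked after their values had been seen. In the lines below, given 5′ to 3′ on the gene's strand, capitals mark the sterol element and any complete CCAAT or its reverse ATTGG.
SREBF2: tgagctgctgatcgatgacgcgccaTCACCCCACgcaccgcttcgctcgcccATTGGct
MSMO1: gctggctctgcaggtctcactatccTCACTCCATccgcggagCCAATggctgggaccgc
MVK: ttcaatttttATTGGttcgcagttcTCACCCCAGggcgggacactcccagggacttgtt
FDPS: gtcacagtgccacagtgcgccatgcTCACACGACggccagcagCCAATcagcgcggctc
HSD17B7: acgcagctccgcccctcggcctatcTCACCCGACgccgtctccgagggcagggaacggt

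The SREBF2 window (chr22:41832947-41833005, plus strand) holds the element TCACNCCAC without a mismatch, 133 bases before the gene start. The other 4 windows hold it with 1 mismatch, in MSMO1 at chr4:165327488-165327546 (156 bases before the start) and in MVK at chr12:109573574-109573632 (195 bases before). The stretch of FDPS spans chr1:155308701-155308759 and that of HSD17B7 chr1:162790579-162790637, all on the plus strand of the build. Searched on both strands, the exact element was in 1 of 26 member windows (3.85%) and in 1.39% of the 27305 genes' windows. With 1 mismatch it was in 13 member windows (50.0%, beside 28.2% of all), and CCAAT was in 20 (76.9%, beside 39.7%). The E-box CACGTG, which SREBP1 can also bind, was in the windows of LSS, SC5D, INSIG1 and SCAP (15.4%, beside 8.77%). The 12 tested members with the element at up to 1 mismatch had log2 fold changes from -0.08 to 0.65 (median 0.27). The 12 tested members whose window lacked it had values from -0.47 to 0.33 (median 0.05). ACAT2 (-0.43), FDFT1 (0.54), SQLE (0.61) and FASN (-0.05) had no window and are in neither group. These values are given as a description with no test. A match is a run of letters, not a bound site.

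The mevalonate arm, 7 enzymes from acetyl-CoA to farnesyl diphosphate, differed in opposite directions in the libraries 232 and 234. The median difference in log2 CPM (anti-GAA minus control) was -0.36 in the libraries 232, with 2 genes above 0. In the libraries 234 it was 0.40, with 6 genes above 0. Fitted over all libraries, 6 genes had a value above 0 and the median log2 fold change was 0.05. The median difference between the control libraries (234 minus 232) was -0.50. HMGCS1, the synthase that forms HMG-CoA, was at 9.60 and 8.49 CPM in the anti-GAA libraries and 12.8 and 4.84 CPM in the controls. Its control libraries lay on either side of both anti-GAA libraries, and the log2 fold change of 0.04 ± 0.46 (SE) had an interval of -1.05 to 1.12. FDPS, which makes farnesyl diphosphate, showed the same order, with 6.67 and 6.74 CPM against 8.61 and 4.36 CPM. MVK, mevalonate kinase, also had control libraries around the anti-GAA libraries, at 14.5 and 9.91 CPM around 13.3 and 12.8 CPM.

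ACAT2, the thiolase that joins acetyl-CoA units in the cytosol, was the member of this arm with the lowest fold change. It was at 5.86 and 7.14 CPM in the anti-GAA libraries and 10.3 and 7.25 CPM in the controls. The groups did not overlap, but the second libraries were nearly equal, and the log2 fold change was -0.43 ± 0.31 (SE; edgeR adjusted p = 0.996). MVD, the decarboxylase that forms isopentenyl diphosphate, was at 57.3 and 57.7 CPM against 55.4 and 41.5 CPM, with both anti-GAA libraries above the controls (log2 fold change 0.25 ± 0.22 SE). IDI1, the isomerase of that product, overlapped fully at 103 and 141 CPM against 134 and 107 CPM. PMVK, the second kinase, was at 55.9 and 65.4 CPM against 55.1 and 56.1 CPM.

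Members of this arm at both low and higher levels share exon bases with a gene on the opposite strand. An antisense RNA gene (ENSG00000261604) covers 37.7% of the HMGCS1 exon bases, RUSC1-AS1 18.6% of those of FDPS, TCP1 17.2% of those of ACAT2 and IDI2-AS1 15.0% of those of IDI1. The gene opposite HMGCS1 itself had 1 and 4 counts in the anti-GAA libraries and 6 and 1 in the controls. Per kilobase of annotated exon, the control level was 1.33 CPM for HMGCS1, 1.74 for FDPS and 3.33 for ACAT2, beside 28.1 for IDI1 and 55.5 for PMVK. MVK, which shares only 2.50% of its exon bases (with MMAB), was as low as HMGCS1, at 1.35 CPM. Of the 29 matched members, 14 share exon bases with another counted gene, 13 of them on the opposite strand. The part of these overlaps in the levels was not tested.

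The sterol arm, 11 enzymes from squalene to cholesterol, had the highest median of the member groups. Of its 10 tested genes 8 had a value above 0, and the median log2 fold change was 0.30 over a range of -0.21 to 0.65. SQLE, squalene epoxidase, a known control point of the pathway, was at 53.4 and 93.7 CPM in the anti-GAA libraries and 43.7 and 52.9 CPM in the controls. The first anti-GAA library was barely above the second control library, while the second stood well apart. Its log2 fold change was 0.61 ± 0.30 (SE; edgeR adjusted p = 0.996), and it moved between 0.15 and 0.96 when each library was left out in turn.

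DHCR7, which catalyses the last reduction to cholesterol, was at 62.5 and 59.6 CPM against 55.1 and 37.4 CPM, a log2 fold change of 0.40 ± 0.24 (SE; edgeR adjusted p = 0.996). Both anti-GAA libraries were above both controls, of which the second was the lower. HSD17B7, a 3-ketosterol reductase, overlapped narrowly at 30.6 and 34.5 CPM against 19.8 and 30.8 CPM (log2 fold change 0.36 ± 0.27 SE). A near-identical copy of HSD17B7 and processed copies of FDPS exist in the genome, and how reads matching several genes were treated is not given in the sources used here, so their values are uncertain. SC5D, the sterol C5-desaturase, was at 40.2 and 38.8 CPM against 41.5 and 25.7 CPM, with the control libraries on either side.

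The remaining enzymes of the sterol arm lay close to 0. EBP, the sterol isomerase, was the most abundant member per kilobase of exon (95.4 CPM per kb in the controls) and measured 191 and 170 CPM against 169 and 169 CPM. NSDHL, the decarboxylating partner of MSMO1, was at 56.3 and 50.0 CPM against 54.6 and 45.0 CPM. LSS, lanosterol synthase, was slightly lower in both anti-GAA libraries at 32.6 and 35.0 CPM against 37.2 and 36.0 CPM (log2 fold change -0.11 ± 0.20 SE). TM7SF2, a sterol C14-reductase, had the lowest fold change of the arm, -0.21 ± 0.29 (SE). Its second control library was at 71.8 CPM beside 41.7, 49.3 and 48.9 CPM in the others, and the value without it was 0.24. CYP51A1, the lanosterol demethylase, had 0 and 3 counts with the anti-GAA ASO and 2 and 0 with the control ASO, at or under the 3 counts that bound a count of 0, so no fold is given. It stands between LSS and MSMO1 in the pathway, which were both well counted in every library. CYP51A1 shares 2.59% of its exon bases with AKAP9 and 3.31% with CYP51A1-AS1, both on the opposite strand. Whether its low counts reflect the RNA level or the way reads were counted was not tested, so its level is uncertain.

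**Figure D2:**
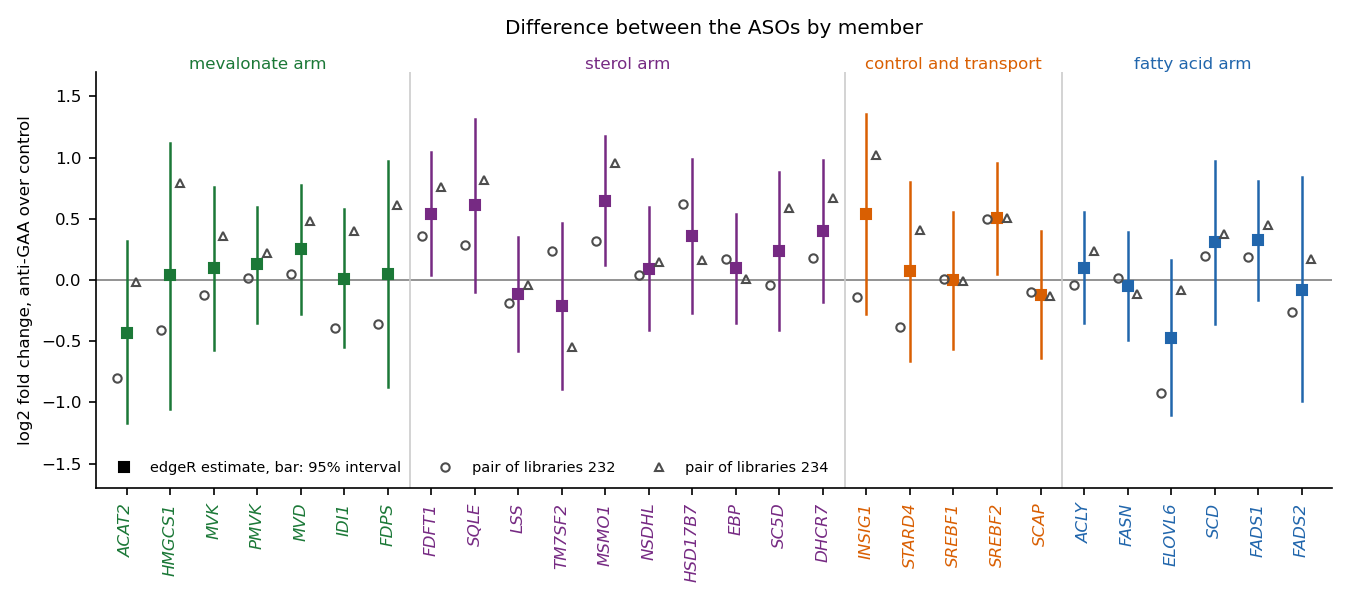
Log2 fold change (anti-GAA over control) of the 28 tested members in pathway order. Squares are edgeR estimates with their 95% intervals, and open marks are the differences in log2 CPM within the libraries 232 (circles) and 234 (triangles); the intervals of FDFT1, MSMO1 and SREBF2 lie above 0 and the others include 0.

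Of the 5 genes of sterol control and transport, SREBF2 was described above, and the median log2 fold change was 0.07. INSIG1, the retention protein that is among the most sterol-sensitive SREBP2 targets, was at 37.2 and 77.8 CPM in the anti-GAA libraries and 41.0 and 38.4 CPM in the controls. A single library, the second with the anti-GAA ASO, stood apart from the other 3. The log2 fold change of 0.54 ± 0.34 (SE; edgeR adjusted p = 0.996) became -0.09 without that library and was 0.98 without the first anti-GAA library. STARD4, a cytosolic sterol carrier, had the same library highest, at 9.09 and 15.0 CPM against 11.9 and 11.3 CPM.

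SREBF1 had near-equal levels with both ASOs. It was at 54.5 and 42.1 CPM in the anti-GAA libraries and 54.2 and 42.3 CPM in the controls, so that each replicate number had the same level in both groups. The log2 fold change was 0.00 with an interval of -0.56 to 0.56. SCAP, the escort protein of both SREBPs, was at 35.3 and 29.1 CPM against 37.9 and 31.8 CPM, with the first library higher in each group (log2 fold change -0.12 ± 0.22 SE). The difference between the fold changes of SREBF2 and SREBF1 was not tested.

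The fatty acid arm showed no common direction: of 6 tested genes 3 were above 0, with a median of 0.03. FASN, fatty acid synthase, was the member with the highest counts and measured 321 and 320 CPM against 317 and 347 CPM, a log2 fold change of -0.05 with an interval of -0.49 to 0.39. ACLY, which supplies cytosolic acetyl-CoA, was at 169 and 195 CPM against 174 and 165 CPM. SCD, the stearoyl-CoA desaturase, was at 195 and 305 CPM against 170 and 234 CPM, with the second library higher in both groups (log2 fold change 0.31 ± 0.28 SE).

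ELOVL6, which lengthens palmitate, had the lowest fold change of all tested members, at 18.1 and 27.8 CPM in the anti-GAA libraries and 34.4 and 29.3 CPM in the controls. The first anti-GAA library stood low and the second lay just under the controls, giving a log2 fold change of -0.47 ± 0.27 (SE; edgeR adjusted p = 0.996). FADS1, a front-end desaturase, was higher in both anti-GAA libraries, at 46.6 and 54.3 CPM against 40.8 and 39.7 CPM (log2 fold change 0.33 ± 0.20 SE). Its neighbour FADS2, which shares exon bases with FADS1 and FEN1, was low at 3.13 and 2.81 CPM against 3.78 and 2.48 CPM.

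Without overlap between the groups, 8 members were higher with the anti-GAA ASO (FDFT1, SQLE, MSMO1, DHCR7, MVD, EBP, SREBF2 and FADS1), where 15.5% of all tested genes were higher in this way. The 3 members that were lower without overlap were ACAT2, LSS and ELOVL6, where 16.9% of all genes were.

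Compared within each replicate number, the median of the members lay nearer 0 in the libraries 232 than in the libraries 234. The median difference in log2 CPM was 0.01 in the pair 232, with 15 of 28 members above 0, and 0.37 in the pair 234, with 21 above 0. For all tested genes these medians were -0.0041 and 0.02. In 22 of 28 members the difference was larger in the pair 234. Both pairs were above 0 in 12 members (42.9%, beside 31.8% of all genes) and below 0 in 4 (14.3%, where 4540 of the 15116 tested genes were).

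Of the 12 members with opposite directions in the pairs, 9 were below 0 in the pair 232 and above 0 in the pair 234, among them HMGCS1 (-0.41 and 0.79), INSIG1 (-0.14 and 1.02) and FDPS (-0.36 and 0.61). SREBF2 had 0.50 and 0.51, and only SREBF1 (0.01 and -0.01) had pairs closer to each other among the members. MSMO1 (0.32 and 0.96), FDFT1 (0.36 and 0.76) and SQLE (0.29 and 0.82) were above 0 in both, higher in the pair 234. Across the 28 members the differences in the pairs had a Pearson's r of 0.184 and a Spearman's rho of 0.188, beside 0.402 and 0.320 across the 15116 tested genes. These are descriptions across genes, which are not independent and which in each pair share the same libraries and depth.

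**Figure D3:**
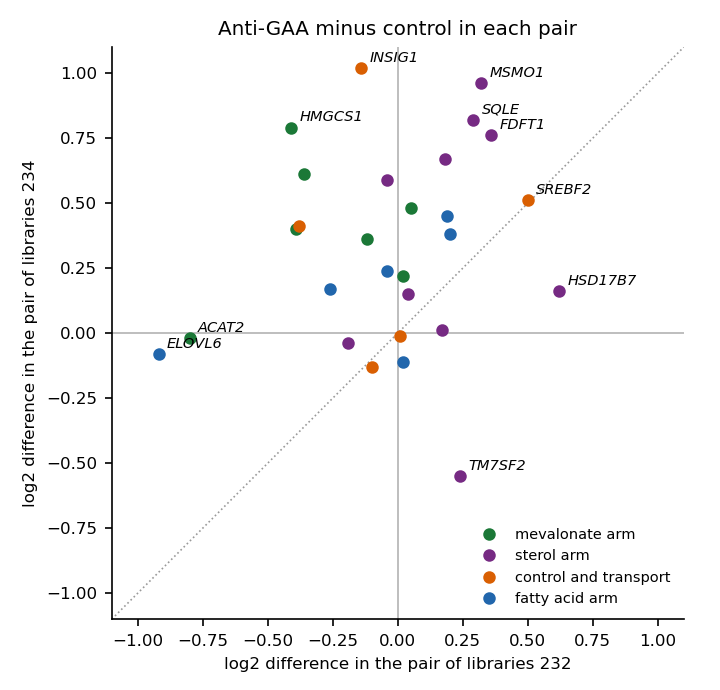
Difference in log2 CPM (anti-GAA minus control) of the 28 tested members in the pair of libraries 232 (horizontal axis) and in the pair 234 (vertical axis), coloured by arm, with the line of equal values dotted. SREBF2 lies on that line at 0.50 and 0.51, and 22 members lie above it.

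Part of this pattern lay between the control libraries. In the control ASO group, 22 of 28 members were lower in library 234 than in library 232 (78.6%, beside 7551 of the 15116 tested genes), with a median difference of -0.23. In the anti-GAA group 12 members were lower, and the median was 0.01. HMGCS1 differed by -1.38 between the controls and by -0.18 between the anti-GAA libraries, while INSIG1 differed by -0.10 and 1.06. The summed level of the mevalonate arm was 251 and 299 CPM in the anti-GAA libraries and 291 and 231 CPM in the controls. For the sterol arm the sums were 812 and 858 CPM against 696 and 651 CPM, with both anti-GAA libraries above both controls.

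With the replicate number as a block in edgeR, 258 of all genes were called (1.71%), of which 0 were members. At an unadjusted p under 0.05 in that fit, 7 members were higher (6.86% of all genes), namely the 3 above with SQLE, DHCR7, HSD17B7 and FADS1, and ELOVL6 alone was lower (9.70% of all genes). The smallest adjusted p was that of MSMO1, 0.0595. With the block and offsets for transcript length and GC content, MSMO1 (log2 fold change 0.69, edgeR adjusted p = 0.0313) and SREBF2 (0.61, adjusted p = 0.0364) were called higher, as were 0.644% of the 14751 genes in that fit.

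The other genes of the pathway had a median near that of all genes. Of 41 listed, 40 were tested and 24 had a value above 0, with a median log2 fold change of 0.04, and 0 were past an unadjusted p of 0.05 in edgeR in either direction. The 10 genes of prenyl and sterol accessory steps had a median of 0.09, the 9 of SREBP control 0.01, the 11 other fatty acid genes 0.14 and the 10 of sterol traffic and LXR response -0.09. SLC25A1, the mitochondrial citrate carrier, had the smallest p of those with a value above 0. It was at 64.7 and 75.3 CPM against 44.9 and 62.8 CPM (log2 fold change 0.38 ± 0.24 SE). CYB5R3, an electron donor to sterol enzymes, was at 362 and 318 CPM against 291 and 272 CPM (log2 fold change 0.27 ± 0.19 SE). PDSS2, of ubiquinone side chain synthesis, was at 17.2 and 19.7 CPM against 27.6 and 22.7 CPM (log2 fold change -0.45 ± 0.23 SE). SCARB1, the HDL receptor, and NPC2, a lysosomal sterol carrier, had -0.26 ± 0.22 and -0.20 ± 0.22.

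Genes that are known to follow cell density were mostly below 0. Of 22 listed YAP and TEAD target genes, chosen with earlier results of these data known, 19 were tested. Of these, 3 had a value above 0 (15.8%, beside 51.6% of all tested genes). The median log2 fold change was -0.32, beside 0.01 for all tested genes. The summed level of the list was 1156 and 1069 CPM in the anti-GAA libraries and 1412 and 1475 CPM in the controls. At an unadjusted p under 0.05 in edgeR, 5 were lower, where 3.46% of all genes were. These were F3, CRIM1, AXL, GADD45A and MYOF, named after their values had been seen, with log2 fold changes from -0.85 to -0.52 and adjusted p of 0.922 to 0.996. With the replicate number as a block in edgeR, F3 (adjusted p = 0.0126) and CRIM1 (adjusted p = 0.0364) were called lower. In that fit 207 of the 15116 tested genes were called lower. In both pairs 13 of the 19 were below 0, with medians of -0.42 in the pair 232 and -0.28 in the pair 234. The part of cell density in the members' values was not tested.

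**Figure D4:**
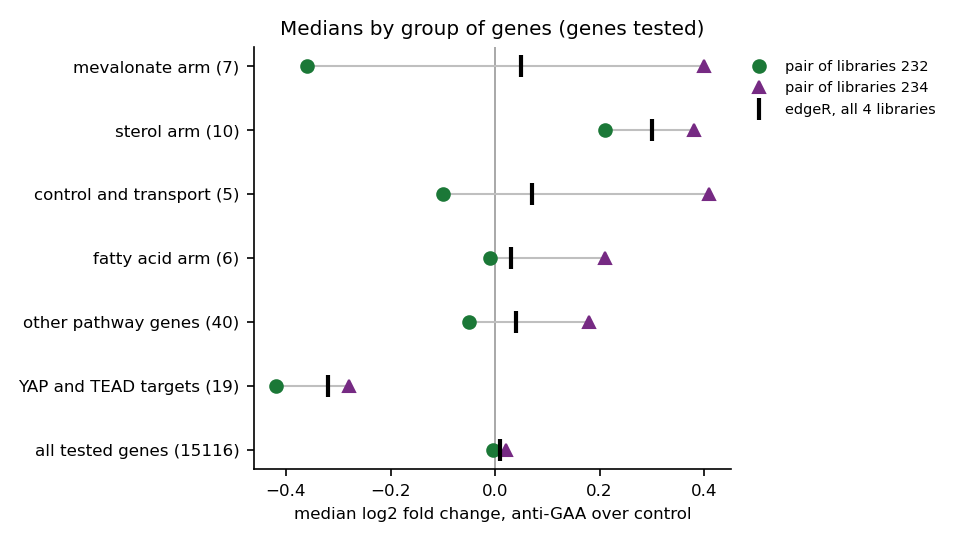
Median log2 fold change (anti-GAA over control) of each group of genes, with the number tested in brackets. Black bars are medians of the edgeR estimates from all libraries, circles and triangles those of the differences within the libraries 232 and 234; the sterol arm lies above 0 in both pairs and the YAP and TEAD targets below 0 in both.

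Runs of GAA, the sequence the ASO was made against, had a median longest length of 7 nt in the members and of 7 nt in all tested genes. In the longest transcript of each gene (GENCODE 44, GRCh38), 4 of 29 members held a perfect run of at least 9 nt (13.8%, beside 20.1% of 14751 tested genes) and none held one of at least 12 nt (2.54% of tested genes). Only annotated transcript sequences were searched, coding or not, and introns outside them were not. The longest run found in a member was 9 nt, and the 4 are shown because the ASO was made against this repeat.
SREBF2: AAGAAGAAG
SC5D: AGAAGAAGA
MVK: AGAAGAAGA
FADS2: AAGAAGAAG

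The run of SREBF2 lies at chr22:41894903-41894911, in exon 14 of 22 of ENST00000424354, annotated as 3′ UTR in that transcript. Its place in other SREBF2 transcripts was not examined. The run of SC5D lies at chr11:121307680-121307688, in the 3′ UTR in exon 5 of 5. Those of MVK (chr12:109589119-109589127) and FADS2 (chr11:61857017-61857025) lie in transcripts without a coding sequence. Whether coding transcripts of these genes hold them was not examined. The 4 genes had log2 fold changes of 0.51 (SREBF2), 0.24 (SC5D), 0.10 (MVK) and -0.08 (FADS2).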

How the data were processed

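HCT116 cells were transfected with anti-GAA or control ASO, and RNA was sequenced in 2 libraries each. The authors trimmed reads with Trimmomatic, aligned them to hg19 with STAR and counted them per Ensembl gene with featureCounts. The deposited values are raw counts for 63677 genes, with no normalization. The Ensembl release, the strand setting and how multi-mapping reads were handled are not given in the sources used here. The labels name a total RNA kit and 48 h of transfection, while the study's methods name an mRNA kit and a shorter time. Total counts were 10538284 (anti-GAA 1), 17894953 (anti-GAA 2), 15347298 (control 1) and 15924742 (control 2).

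Genes kept by filterByExpr (15116) were scaled by TMM and tested with edgeR 4.0.16 (R 4.3.3, quasi-likelihood test, condition as the only term), with Benjamini-Hochberg adjustment over all of them and a threshold of 0.05. DESeq2 1.42.0 was an alternative. Differences within pairs are on the log2 CPM scale, where a prior count of 2 was added. Identifiers were joined to GENCODE 44 on GRCh38 (52181 matched), and no position was carried over from hg19. All members are named, with the 3 other pathway genes of smallest p in each direction. Members, lists and tests were chosen with earlier results of these data known. Alternatives were other size factors, total-count scaling, other filters, an adjusted p under 0.1, the replicate number as a block, length and GC offsets (mgcv 1.9.3), CPM by total counts, all transcripts, 1 motif mismatch and leaving out each library. Some genes of the pathway, among them 1 that the naming rule chose, are not reported here.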

Additional observations from a re-analysis of the deposited data

How the results depend on the processing

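With 2 libraries per group, leaving one out assumes that the lone library varies like the others. No label says what the numbers 232 and 234 mark. The first principal component (52.7% of the variance) separated the numbers and the second (33.1%) the ASOs, and same-numbered libraries deviated together (r = 0.564 across genes). The block counts rest on 1 residual degree of freedom per gene. Genes called went from 0 to 5 with DESeq2, 116 without a filter on low counts, 258 with the replicate block, 58 with DESeq2 and the block and 279 with the block and offsets for length and GC, and ran from 0 to 18 when each library was left out, with 18 without control replicate 1 and 5 without anti-GAA replicate 2. Members called stayed at 0 except for 2 with the block and offsets. Members at an unadjusted p under 0.05 were 3, and 1 with total-count scaling, 8 with the replicate block, 5 with DESeq2 and the block, 10 with the block and offsets, and 0 (without control replicate 2) to 3 when each library was left out. Other pathway genes there went from 0 to 4 with the block, 1 with DESeq2 and the block, 7 with the block and offsets, and 0 to 2 when each library was left out. Allowing 1 mismatch raised members with the sterol element from 1 to 13. Apart from the construction of these fits, the causes were not tested.

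Total-count scaling turned HMGCS1 (-0.04), IDI1 (-0.07), FDPS (-0.03), EBP (-0.0015) and STARD4 (-0.01) below 0. SREBF1 was 0.01 with DESeq2, with its size factors in edgeR and with DESeq2 and the block, 0.00021 with the replicate block, and 0.08 and 0.09 with the offsets without and with the block. With these offsets FASN was 0.09 and 0.09, and FADS2 0.01 and 0.06. When each library was left out, the values ran from -0.49 to 0.89 (HMGCS1), -0.14 to 0.39 (MVK), -0.23 to 0.23 (IDI1), -0.35 to 0.61 (FDPS), -0.56 to 0.24 (TM7SF2), -0.03 to 0.23 (NSDHL), -0.06 to 0.61 (SC5D), -0.09 to 0.98 (INSIG1), -0.34 to 0.38 (STARD4), -0.19 to 0.18 (SREBF1), -0.25 to 0.02 (SCAP), -0.0028 to 0.21 (ACLY), -0.12 to 0.03 (FASN), -0.05 to 0.60 (SCD) and -0.34 to 0.25 (FADS2). The other 12 members kept their direction in every fit run. Of these, SREBF2 ran only from 0.50 to 0.52 when each library was left out. Its value was 0.41 with total-count scaling and 0.61 with the block and offsets. The size of the rest moved more when each library was left out, from 0.16 to 0.70 in DHCR7, 0.07 to 0.72 in HSD17B7, 0.06 to 0.46 in MVD and 0.01 to 0.24 in PMVK. The values ran from 0.15 to 0.96 in SQLE, 0.36 to 0.75 in FDFT1, 0.44 to 0.84 in MSMO1 and 0.21 to 0.44 in FADS1. Below 0, they ran from -0.65 to -0.16 in ACAT2, -0.81 to -0.19 in ELOVL6 and -0.16 to -0.06 in LSS.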
